A study of Homo sapiens with 12 samples.

Results

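The genes described are 9 interferon-induced human genes whose proteins bind RNA that lacks a normal cap or is double-stranded: IFIT1, IFIT2, IFIT3, IFIT5, IFIH1, EIF2AK2, OAS1, OAS2 and OAS3. They were measured in U2OS, a human osteosarcoma cell line, made to carry K294A, a form of the capping enzyme without its active-site lysine, under control of doxycycline. Probe sets were taken where 1 of these 9 names was their only gene symbol, which gave 170 probe sets of the 357604 with a single symbol, and none of the 170 was shared with another gene. All 12 arrays were hybridised with cytoplasmic RNA from which ribosomal RNA had been removed, and all cells carried the K294A transgene. Cells of the induced groups had received doxycycline at 1 ug/ml for 24 h, and those of the uninduced groups had not. In each of these, 3 RNA samples were left undigested and 3 were treated in the tube with Xrn1, an exonuclease that degrades RNA from a 5′ monophosphate end, so that RNA with a cap is spared. No group received doxycycline without the transgene or another transgene, so that the drug and the K294A protein cannot be told apart. The question was whether cells in which cytoplasmic capping is blocked carry more of the transcripts for sensors of uncapped RNA.

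An RNA polymerase II transcript receives its cap in the nucleus, and a cytoplasmic complex around the capping enzyme can put a cap back on transcripts that have lost it. IFIT proteins hold RNA by its 5′ end: IFIT1 takes triphosphate ends and caps without ribose methylation, IFIT5 takes triphosphate and other uncapped ends, and IFIT2 and IFIT3 act as partners of IFIT1. IFIH1 encodes MDA5, which binds long double-stranded RNA and signals to the interferon genes. EIF2AK2 encodes PKR, a kinase that halts translation when it binds double-stranded RNA, and OAS1, OAS2 and OAS3 encode synthetases whose oligoadenylate product activates the nuclease RNase L. Interferon raises all of these genes through the factor ISGF3, which recognises a promoter element with repeated GAAA letters.

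The sequence upstream of the start is shown for IFIT1, IFIT5, EIF2AK2, OAS3 and OAS1, and not for IFIH1. The promoter element is what these genes share apart from what their proteins do. RefSeq (GRCh38.p14) had a window of 250 bases before and 50 after the start for 7 of the 9 genes, in 8 windows. The motif searched was GAAA, then any 2 bases (NN), then GAAA, which reads TTTC, NN, TTTC on the other strand. On either strand, overlapping matches included, it was in the windows of 6 of these 7 genes, against 4.376% of 27305 genes. The 160 bases printed, 150 before and 10 after the start, held it in 1.919% of all 35116 windows. Capitals mark the matches.
IFIT1, chr10:89392473-89392632, plus strand: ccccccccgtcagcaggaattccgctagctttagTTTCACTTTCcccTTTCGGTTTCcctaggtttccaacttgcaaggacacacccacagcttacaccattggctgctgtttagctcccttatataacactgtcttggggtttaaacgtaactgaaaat
IFIT5, chr10:89414418-89414577, plus strand: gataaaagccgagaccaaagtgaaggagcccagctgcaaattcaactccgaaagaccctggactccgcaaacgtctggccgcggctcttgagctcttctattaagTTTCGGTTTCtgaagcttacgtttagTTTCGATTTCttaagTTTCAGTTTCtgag
EIF2AK2, chr2:37156971-37157130, minus strand: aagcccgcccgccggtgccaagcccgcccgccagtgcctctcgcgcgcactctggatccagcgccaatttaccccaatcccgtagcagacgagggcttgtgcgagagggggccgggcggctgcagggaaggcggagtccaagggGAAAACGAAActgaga
OAS3, chr12:112938324-112938483, plus strand: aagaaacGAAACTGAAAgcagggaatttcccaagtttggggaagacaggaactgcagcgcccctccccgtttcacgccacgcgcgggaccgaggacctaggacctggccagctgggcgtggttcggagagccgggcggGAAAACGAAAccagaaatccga
OAS1, chr12:112906812-112906971, plus strand: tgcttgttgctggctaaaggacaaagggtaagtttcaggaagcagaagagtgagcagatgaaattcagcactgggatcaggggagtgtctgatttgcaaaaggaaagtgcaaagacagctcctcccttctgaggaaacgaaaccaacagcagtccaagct
IFIT1 had 2 matches, 116 and 103 bases before its start, and IFIT5 had 3, at 45, 19 and 4 bases. OAS3 also had 2, at 143 and 12 bases before the start, and EIF2AK2 had 1, at 6 bases. OAS1 was the gene with a window and no match to this motif. Its printed stretch holds GAAA, 1 base and GAAA, which a motif with 2 bases between does not cover. A match describes the letters and is no evidence of a bound factor.

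Values are on the log2 scale of the deposited probe set values, and a gene's value is the mean of its probe sets whose average over the 12 arrays was above 2.04, the median over all probe sets. Genes with at least 3 such probe sets were tested, 16883 in all, which included 7 of the 9 genes. IFIT2 had 1 of its 10 probe sets above that level and IFIT3 had 2 of 6, so that both were measured only without the filter. Genes were called at a limma adjusted p under 0.05 (Benjamini-Hochberg over all genes tested). The fit gave every gene the same SD of 0.418, hence a standard error of 0.34 for a difference between groups and 0.48 for a difference of differences. The labels call the samples biological replicates without saying whether the cultures were separate, so that each p measures only the spread between these samples.

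Several facts of the arrays bear on what follows. The median gene value ran from 3.08 to 3.82 over the arrays, and the median change of all genes was -0.35 for induction in undigested RNA, so each change is read against the all-gene median. Induced untreated replicate 3 correlated with uninduced untreated replicates 3 and 1 at 0.979 and 0.952 over all genes, and with its own group at 0.870 and 0.835. Uninduced Xrn1 replicate 2 correlated with its group at 0.711 and 0.847. All 11 markers of this mesenchymal line were measured, with VIM at 7.79 ± 0.01 (SD, n = 3) and COL1A1 at 8.85 ± 0.28 (SD, n = 3) in uninduced untreated cells, but COL1A2, COL5A2 and RUNX2 were at 3.05, 2.72 and 3.59, and the epithelial markers KRT8 and KRT18 at 7.60 and 6.46. The marker sums ran from 66.5 to 70.7 in uninduced and 62.2 to 66.8 in induced untreated arrays for the mesenchymal list. For the 5 epithelial markers they ran from 23.5 to 25.0 and 21.7 to 23.5. Of 6 leukocyte markers, 3 were measured, with sums of 9.02 to 10.6 in uninduced and 10.1 to 11.2 in induced untreated arrays. The part of these markers in the results was not tested. RNGTT, the cell's own capping enzyme gene, was at 4.28, 2.77 and 4.33 in uninduced and 3.26, 4.56 and 4.18 in induced untreated arrays, a change of 0.21 (limma adjusted p = 0.685), and whether its probe sets detect the transgene is not given in the sources used here.

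With K294A induced, none of the sensor genes was called higher in undigested RNA, and IFIT5 fell 2.74-fold. In these bulk samples, fewer cells with a transcript and less of it per cell cannot be told apart. Of the 7 genes tested, 6 had changes below 0 and only IFIH1 was above 0. The call of IFIT5 was the 1 of 7, against 0.0415% of all genes called in either direction (7 of 16883) and 0.0296% called lower. At an unadjusted p under 0.05 there were 4 genes, IFIT5, IFIT1, OAS1 and OAS2, beside 30.8% of all genes. The median change of the 7 genes was -0.70, beside -0.35 over all genes, and it was -0.43 after each array was centred on its median gene, beside -0.08 over all genes.

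**Figure D1:**
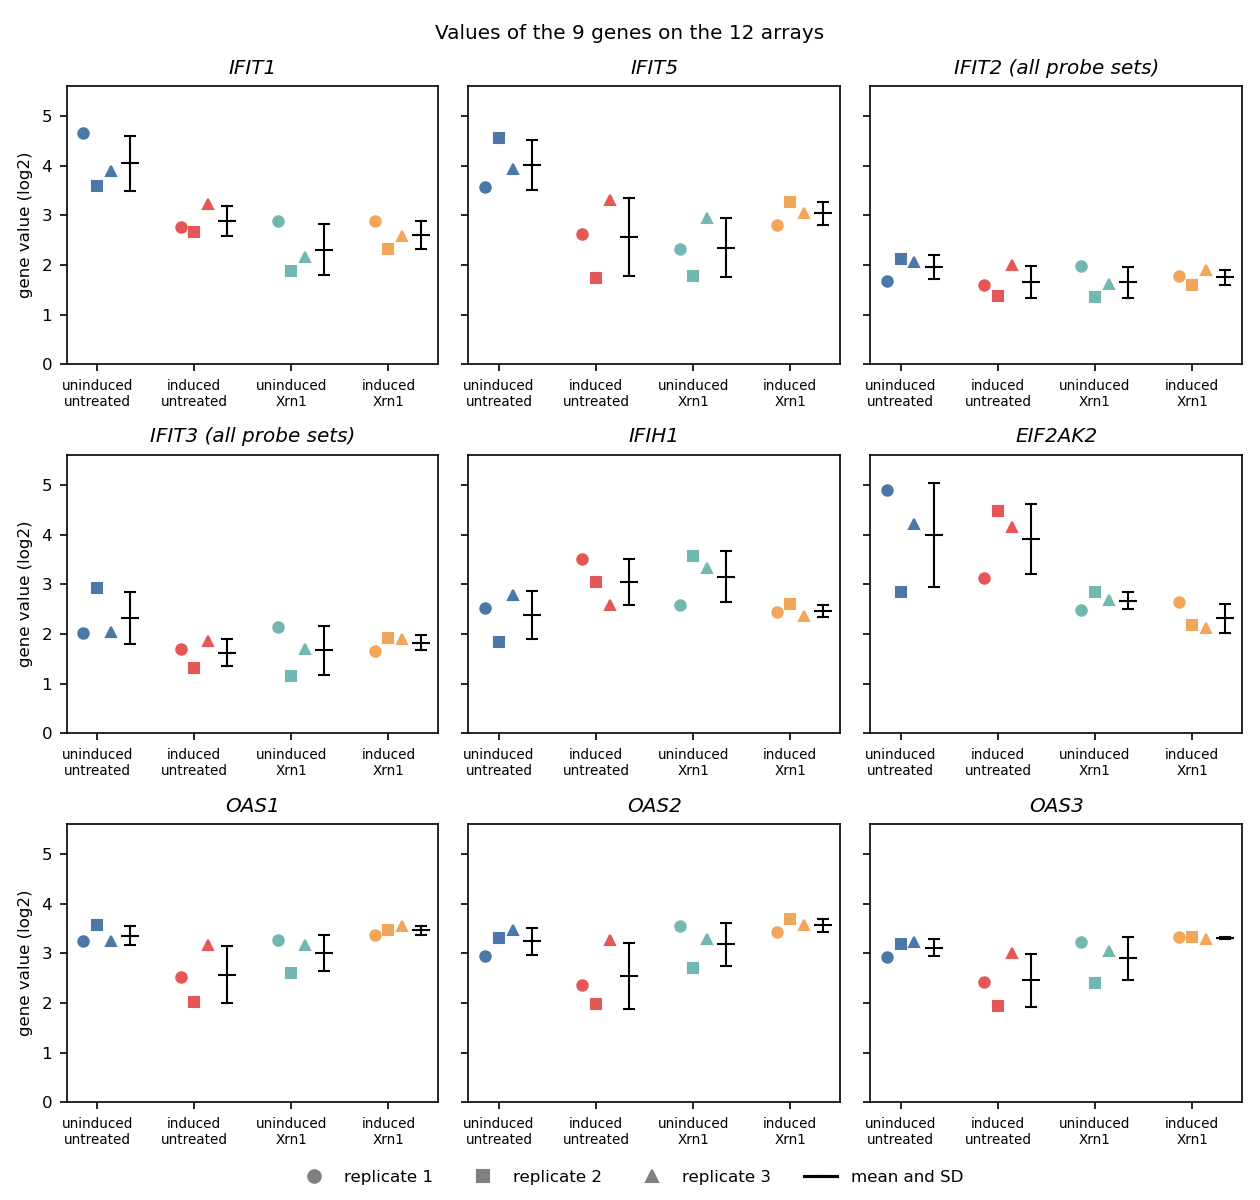
Each panel gives a gene's log2 value (vertical axis) on every array, by group, with symbols for the replicates and a bar for the mean and SD of 3 arrays; IFIT2 and IFIT3 are means of all their probe sets. IFIT1 and IFIT5 are highest on the 3 uninduced untreated arrays, and the OAS genes lie closest together on the 3 induced Xrn1 arrays.

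IFIT5, the sensor of uncapped 5′ ends, was at 3.56, 4.55 and 3.93 in uninduced untreated cells (replicates 1, 2 and 3). In induced untreated cells it was at 2.62, 1.74 and 3.30. The lowest uninduced array lay above the highest induced one, so that the groups did not overlap, which was so for 23.2% of all genes. The change was -1.46 (95% interval -2.13 to -0.79; limma adjusted p = 0.0488), and it was -1.19 (adjusted p = 0.0604) after centring and -1.29 (adjusted p = 0.0990) after cyclic loess. It stayed below 0 in all 17 alternatives and passed the threshold in 2 of them, a trended robust prior and the fit without induced replicate 3, with adjusted p values over the 17 from 0.00747 to 0.515. Left-out arrays gave -1.49 (adjusted p = 0.447) without induced replicate 1 and -1.05 (adjusted p = 0.163) without induced replicate 2. Without uninduced replicates 1, 2 and 3 in turn, the values were -1.68, -1.19 and -1.50 (adjusted p = 0.0862, 0.166 and 0.154). With its own spread (residual SD of 0.561) in place of the common one, IFIT5 had an adjusted p of 0.175.

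IFIT1, which binds triphosphate ends and unmethylated caps, followed the same order at 4.66, 3.58 and 3.90 in uninduced and 2.76, 2.66 and 3.23 in induced untreated cells. Its groups were apart as well, and induced replicate 3 was the highest of the induced arrays for IFIT1 and IFIT5 alike. The change was -1.16 (95% interval -1.83 to -0.49; limma adjusted p = 0.110), -0.90 after centring, and it stayed below 0 in all 18 alternatives. The 7 probe sets of IFIT1 that were kept all had changes below 0, from -1.70 to -0.77, and so had the 4 of IFIT5, from -1.88 to -0.89. They were kept by a mean that includes the uninduced untreated arrays, where both genes were highest, so their common direction is no separate support. Over all their probe sets, the changes were -0.95 for IFIT1 and -1.27 for IFIT5 (limma adjusted p = 0.0805 for both). No single probe set of any gene was called in this contrast (0 of 705699).

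**Figure D2:**
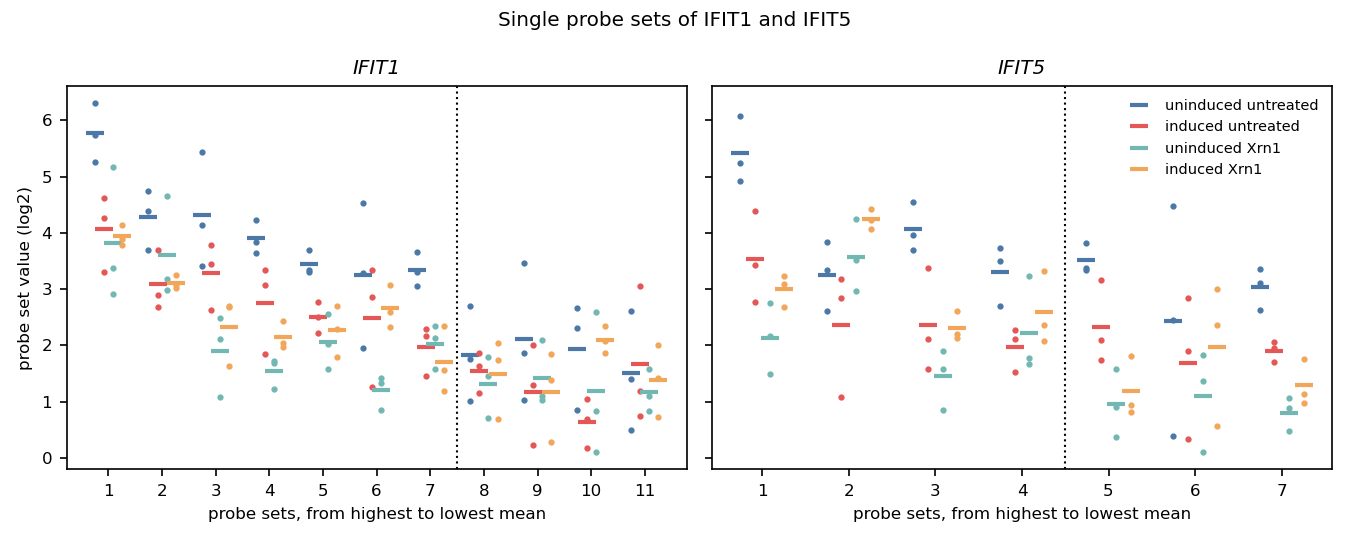
Single probe sets of IFIT1 and IFIT5 in order of their mean (horizontal axis), with the log2 value of every array as a dot and each group's mean as a bar; probe sets to the right of the dotted line fell below the filter. Left of the line, the uninduced untreated mean lies above the induced untreated mean at every probe set of both genes. The filter used the mean over all arrays, the uninduced untreated ones included.

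IFIT2 and IFIT3, the partners of IFIT1, were near the low end of the scale. Over all its probe sets, IFIT3 was at 2.02, 2.93 and 2.04 in uninduced and 1.69, 1.32 and 1.85 in induced untreated cells. These groups did not overlap, and the change was -0.71 (limma adjusted p = 0.108 among 18674 genes tested without the filter, of which 0.0321% were called). IFIT2 was at 1.68, 2.12 and 2.07 in uninduced and 1.60, 1.37 and 2.01 in induced untreated cells. Its groups overlapped, with a change of -0.29 (adjusted p = 0.468). Without the filter, neither gene was called in any contrast. With genes of 1 kept probe set admitted, IFIT2 was called higher after Xrn1 in uninduced cells, with its kept probe set at a change of 1.20, while the mean of all its probe sets was at -0.31, so that no direction could be given. IFIT3 was not called there.

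The OAS genes had lower values in 2 of the 3 induced untreated arrays. OAS1 was at 3.24, 3.57 and 3.25 in uninduced and 2.52, 2.02 and 3.16 in induced untreated cells, groups that did not overlap. OAS2 was at 2.94, 3.30 and 3.47 against 2.37, 1.97 and 3.26, and OAS3 at 2.92, 3.19 and 3.23 against 2.41, 1.94 and 3.01. For OAS2 and OAS3, induced replicate 3 lay within the range of the uninduced arrays. The changes were -0.78 for OAS1, -0.70 for OAS2 and -0.66 for OAS3 (limma adjusted p = 0.124, 0.148 and 0.168), and after centring -0.52, -0.43 and -0.39. At single probe sets, 9 of 11 for OAS1, 8 of 8 for OAS2 and 29 of 30 for OAS3 were below 0.

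The change of IFIH1 was above 0 and that of EIF2AK2 near 0. IFIH1 was at 2.53, 1.84 and 2.77 in uninduced and 3.51, 3.04 and 2.57 in induced untreated cells, and induced replicate 3 was within the uninduced range. Its change was 0.66 (95% interval -0.01 to 1.33; limma adjusted p = 0.167), 0.93 (adjusted p = 0.0886) after centring, with 9 of 12 probe sets above 0. EIF2AK2 was at 4.90, 2.85 and 4.22 in uninduced and 3.13, 4.47 and 4.14 in induced untreated cells. Uninduced replicate 2 was the lowest of these 6 arrays and uninduced replicate 1 the highest, the widest spread within a group among the 7 genes. The change of EIF2AK2 was -0.08 (95% interval -0.75 to 0.59; adjusted p = 0.892), and it turned to 0.19 after centring and 0.16 after loess.

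**Figure D3:**
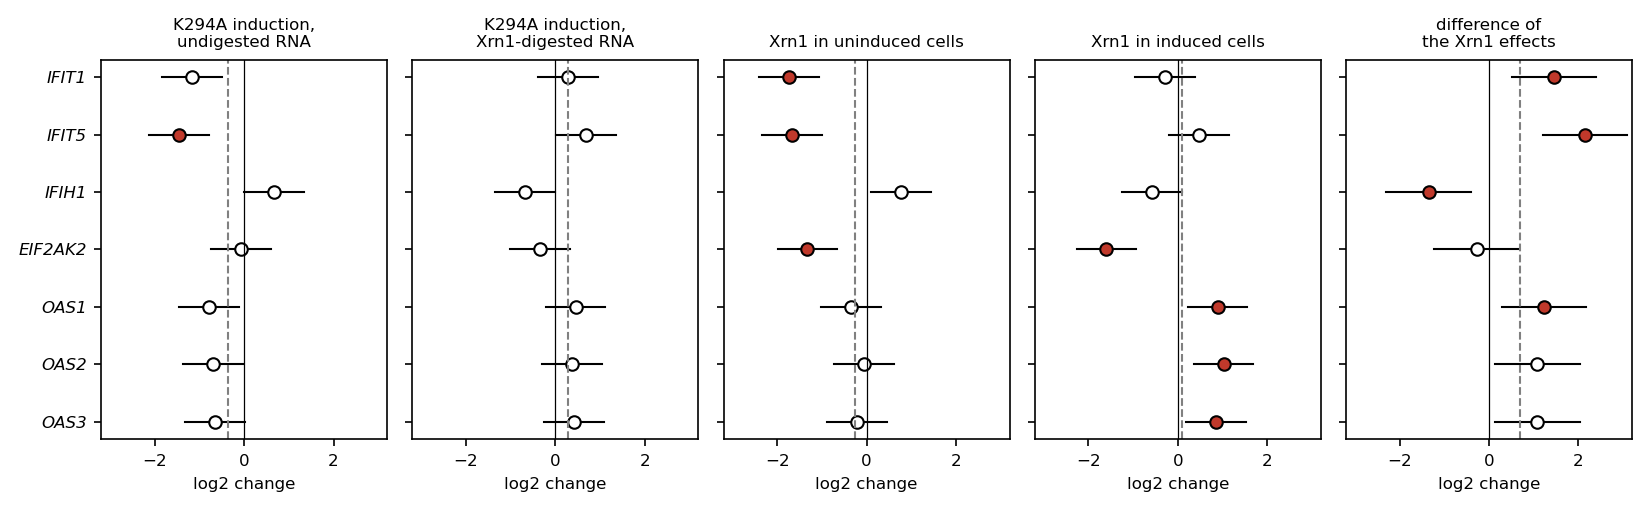
Log2 change (horizontal axis) of the 7 genes tested in each of the 5 contrasts, with the 95% interval as a line; filled points passed a limma adjusted p of 0.05, and the dashed line is the median change of all genes. IFIT5 is the only filled point for induction, and the OAS genes are filled only for Xrn1 in induced cells and, for OAS1, for the difference of the Xrn1 effects.

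Leaving out induced untreated replicate 3, the array closest to the uninduced ones, changed the count most. Without it, 6 of the 7 genes were called: IFIT1 (-1.34), IFIT5 (-1.83), OAS1 (-1.08), OAS2 (-1.07) and OAS3 (-0.93) lower, and IFIH1 (0.90) higher. In that fit 41.0% of all genes were called, 37.9% lower and 3.06% higher, and the all-gene median was -0.58. No other left-out array gave a call to any of the 7 genes in this contrast.

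**Figure D4:**
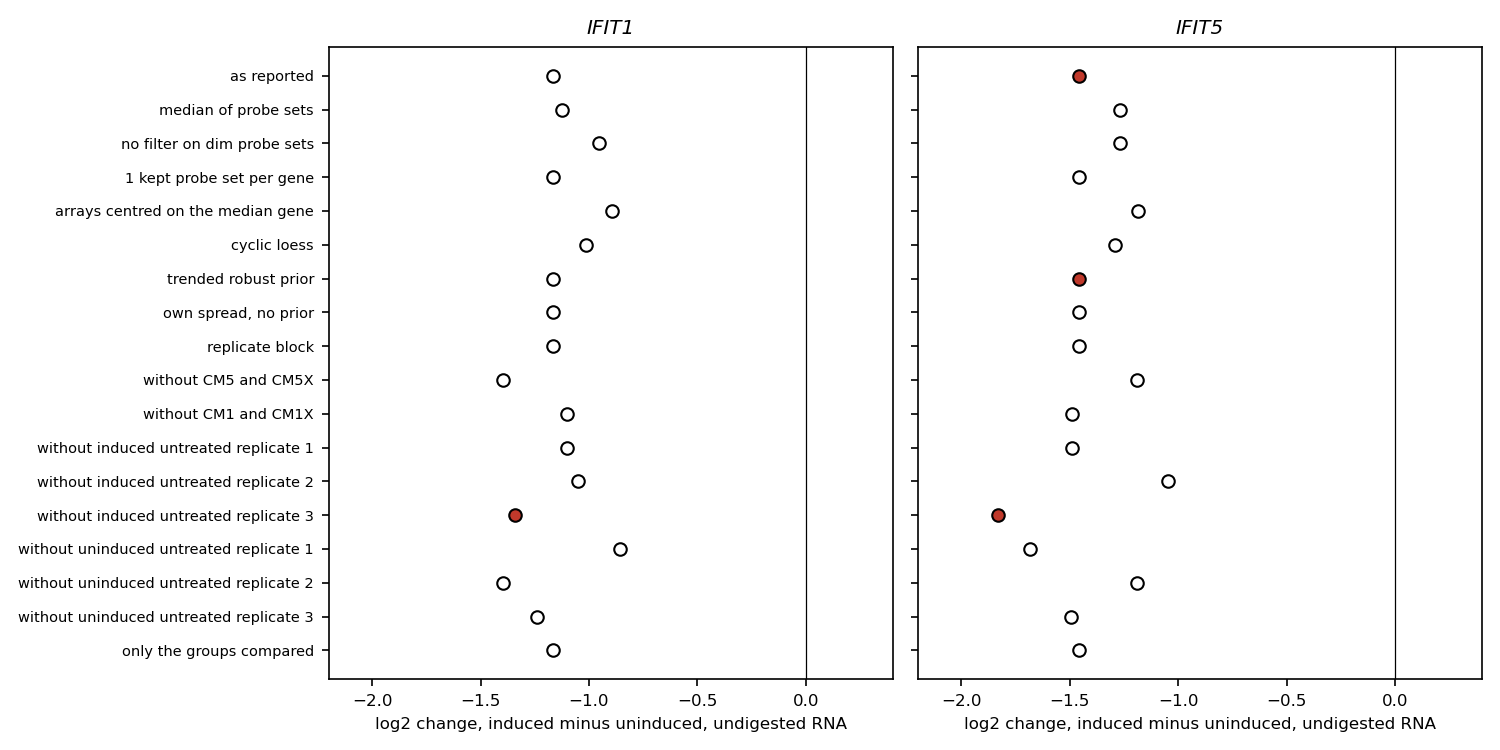
Log2 change of IFIT1 and IFIT5 on K294A induction in undigested RNA (horizontal axis) under each alternative (rows); filled points passed a limma adjusted p of 0.05. All points of both genes lie below 0, and those without induced untreated replicate 3 are filled for both genes.

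After Xrn1, induced and uninduced cells were also compared, in RNA that the exonuclease had left. None of the 7 genes was called, against 0.0592% of all genes, and 2 had an unadjusted p under 0.05, as had 9.09% of all genes. Those were IFIT5, with a change of 0.69 (limma adjusted p = 0.534), and IFIH1, with -0.69 (adjusted p = 0.534). The order of the groups was thus the opposite of that in undigested RNA for both genes. IFIT5 was at 2.32, 1.77 and 2.95 in uninduced and 2.81, 3.26 and 3.04 in induced digested samples, and IFIH1 at 2.58, 3.56 and 3.32 against 2.44, 2.59 and 2.36.

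The OAS genes and IFIT1 also had changes above 0 in digested RNA, none of them called. OAS1 was at 3.26, 2.60 and 3.17 in uninduced and 3.37, 3.46 and 3.54 in induced digested samples. OAS3 was at 3.23, 2.41 and 3.04 against 3.33, 3.32 and 3.29. The groups of these 2 genes did not overlap, as in 34.4% of all genes, and the changes were 0.45 and 0.42 (limma adjusted p = 0.551 and 0.568) beside an all-gene median of 0.28. OAS2 was at 3.54, 2.70 and 3.29 against 3.43, 3.69 and 3.56, a change of 0.38 (adjusted p = 0.596). Uninduced Xrn1 replicate 2 was the lowest digested array for each of the 3 OAS genes, for IFIT5 and for IFIT1. IFIT1 was at 2.88, 1.88 and 2.16 in uninduced and 2.89, 2.32 and 2.58 in induced digested samples, a change of 0.29 (adjusted p = 0.681). EIF2AK2 was at 2.49, 2.83 and 2.68 against 2.65, 2.18 and 2.12, a change of -0.35 (adjusted p = 0.618).

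Xrn1 lowered the transcripts of 3 sensors in uninduced cells: IFIT1 fell 3.33-fold, IFIT5 3.17-fold and EIF2AK2 2.50-fold. The changes were -1.74 for IFIT1, -1.67 for IFIT5 and -1.32 for EIF2AK2 (limma adjusted p = 3.1e-06, 8.5e-06 and 0.000547). All of them had every digested array below every undigested one, by a small margin for EIF2AK2, whose undigested replicate 2 was at 2.85 and digested replicate 2 at 2.83. Groups did not overlap in 44.8% of all genes, a share near that of the 7 genes. A call of 3 of 7 genes stood beside 39.0% of all genes, 31.8% lower and 7.24% higher, so the share was near that of all genes. Without undigested replicate 1 the change of EIF2AK2 was -0.87 (adjusted p = 0.0647), and with its own spread (residual SD of 0.652) the adjusted p was 0.0923, the highest of its 19 alternatives.

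The other sensors gave no call to Xrn1 in uninduced cells. IFIH1 had a change of 0.77 (adjusted p = 0.0592), which passed after centring at 1.13 (adjusted p = 0.00328), after loess at 0.78 (adjusted p = 0.0357), without digested replicate 1 at 1.06 (adjusted p = 0.0210) and without undigested replicate 3 at 0.97 (adjusted p = 0.0393). With it, the calls after centring were 1 higher and 3 lower, beside 3930 higher and 4294 lower over all 16883 genes. OAS1, OAS2 and OAS3 had changes of -0.35, -0.06 and -0.22, and after centring 0.01, 0.30 and 0.14, so that no direction could be given. At single probe sets, 5 of 7 for IFIT1, 2 of 4 for IFIT5 and 12 of 26 for EIF2AK2 were called lower, against 10.8% of all probe sets. IFIT5 had 1 probe set with a change above 0, at 0.32.

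In induced cells EIF2AK2 was again lower after Xrn1, and the OAS genes had higher values. These values are relative to the other transcripts on an array, so a higher value after digestion need not be a gain of transcript. EIF2AK2 was lower after Xrn1 by 3.03-fold, a change of -1.60 (limma adjusted p = 5.3e-05), and OAS1, OAS2 and OAS3 were higher, at 0.89, 1.02 and 0.86 (adjusted p = 0.0279, 0.0112 and 0.0332). These were 4 of 7 genes, against 39.3% of all genes, 21.6% higher and 17.8% lower. All 4 genes had groups that did not overlap, as had 50.9% of all genes. IFIT1 (-0.28), IFIT5 (0.48) and IFIH1 (-0.58) were not called (adjusted p = 0.547, 0.269 and 0.169), and IFIH1 was called lower after loess, at -0.75 (adjusted p = 0.0425; over all 19 alternatives 0.0425 to 0.887). Without the filter on dim probe sets, OAS1, OAS2 and OAS3 were at 0.55, 0.35 and 0.75. None of these 3 was then called (limma adjusted p = 0.168, 0.411 and 0.0536), while EIF2AK2 kept its call.

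In induced cells the OAS values were close together after digestion and spread before it, and in uninduced cells it was the other way round. For OAS3 in induced cells the digested arrays were at 3.33, 3.32 and 3.29, with an SD of 0.02, and the undigested ones at 2.41, 1.94 and 3.01, with an SD of 0.53. In uninduced cells the SD of OAS3 was 0.43 after digestion and 0.17 before it. This pattern was not particular to the OAS genes. MX1 had SDs of 0.05 after digestion and 0.52 before it in induced cells, and 0.58 and 0.23 in uninduced cells. The neural markers GFAP, SYP and SNAP25 had the pattern as well. Of these 3 markers, 2 were called higher after Xrn1 in induced cells, beside 21.6% of all genes. OAS1 kept its call when undigested replicate 3 was left out and lost it without each of the other 5 arrays, at 0.61 to 0.93, the lowest without undigested replicate 2 (adjusted p = 0.233). OAS3 did the same, at 0.60 to 0.87, the lowest also without undigested replicate 2 (adjusted p = 0.240). OAS2 lost its call without undigested replicate 2 at 0.74 (adjusted p = 0.148) and without digested replicate 2 at 0.96 (adjusted p = 0.0624). With each gene's own spread, none of the 7 was called: EIF2AK2 had an adjusted p of 0.0712, and the adjusted p of the 3 OAS genes ran from 0.0685 to 0.0727. At single probe sets 12 of 26 for EIF2AK2 were called lower and 1 higher, and 2 of 11 for OAS1, 1 of 8 for OAS2 and 4 of 30 for OAS3 were called higher, against 5.52% lower and 6.89% higher over all probe sets.

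The Xrn1 effect differed between induced and uninduced cells for 4 of the 7 genes, tested as the induced minus the uninduced Xrn1 effect. IFIT5 (2.14), IFIT1 (1.45) and OAS1 (1.23) were higher and IFIH1 (-1.35) lower (limma adjusted p = 0.00402, 0.0292, 0.0493 and 0.0369). Over all genes 21.8% were called, 20.6% higher and 1.23% lower, with a median of 0.70, and the median of the 7 genes was 1.08. OAS2 and OAS3, both at 1.08, had adjusted p values of 0.0764 and 0.0770, and EIF2AK2 was at -0.27 (adjusted p = 0.674). Side by side, the Xrn1 changes in uninduced and induced cells were -1.74 and -0.28 for IFIT1, -1.67 and 0.48 for IFIT5, 0.77 and -0.58 for IFIH1 and -0.35 and 0.89 for OAS1. Without the filter on dim probe sets, IFIT5 (1.89), IFIT1 (1.23) and OAS3 (1.12) were called higher (limma adjusted p = 0.00343, 0.0306 and 0.0450). OAS1 (0.92) and IFIH1 (-1.05) were then not called (adjusted p = 0.0884 and 0.0552). Over all genes, 5194 of 18674 were called in that fit.

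Array scaling also set part of the count of sensor genes called. With arrays centred on the median gene, the all-gene median of the difference was 0.23 and 2 of the 7 genes were called, IFIT5 (1.68, adjusted p = 0.0271) higher and IFIH1 (-1.81, adjusted p = 0.0206) lower. Cyclic loess called the same 2, at 1.80 and -1.53 (adjusted p = 0.0440 and 0.0486). Over all 16883 genes, centring called 1856 and loess 423. IFIT1 was then at 0.99 and 1.13 (adjusted p = 0.0872 and 0.0690), and OAS1 at 0.77 and 0.82 (adjusted p = 0.147 and 0.112). With 1 array left out, IFIT5 lost its call only without digested uninduced replicate 2 (1.86, adjusted p = 0.0553), and over its 23 alternatives the adjusted p ran from 0.00239 to 0.133.

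With 1 array left out, the other 3 differences kept their sign, but their calls depended on which array it was. The count over all genes moved in the same fits. It was 3687 with all arrays, 50 without digested induced replicate 3 and 8400 without undigested induced replicate 3. Why calls were lost was not tested. IFIT1 kept its call without digested induced replicate 2, undigested induced replicate 3, digested uninduced replicate 1 or undigested uninduced replicate 2, and lost it without each of the other 8 arrays, at 1.15 to 1.53. IFIH1 kept it without undigested induced replicate 3 or replicate 1 of either uninduced group and lost it otherwise, at -1.55 to -1.08. OAS1 kept it without undigested induced replicate 3 or digested uninduced replicate 1 and lost it otherwise, at 0.96 to 1.31. Without undigested induced replicate 3, 6 of the 7 genes were called, against 49.8% of all genes.

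The order of levels over the 4 groups differed between the families and, with the filter, was the same for the 3 OAS genes. IFIT1 and IFIT5 were highest in uninduced untreated cells, at 4.05 ± 0.55 and 4.01 ± 0.50 (SD, n = 3), apart from every array of the next group, and the other 3 groups overlapped in their neighbouring ranges. EIF2AK2 was high in both untreated groups, at 3.99 ± 1.05 and 3.91 ± 0.70 (SD, n = 3), whose ranges overlapped. Its digested groups, at 2.67 ± 0.17 and 2.31 ± 0.29 (SD, n = 3), lay below them. IFIH1 ran from 3.15 ± 0.51 in uninduced Xrn1 samples to 2.38 ± 0.48 (SD, n = 3) in uninduced untreated ones, with every neighbouring pair overlapping. All 3 OAS genes were highest in induced Xrn1 samples, at 3.46 ± 0.08, 3.56 ± 0.13 and 3.31 ± 0.02 (SD, n = 3), and lowest in induced untreated ones, at 2.57 ± 0.57, 2.54 ± 0.66 and 2.45 ± 0.53 (SD, n = 3). Only for OAS3 was the highest group apart from the next.

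The 3 OAS genes followed each other across the 12 arrays. Pearson's r was 0.97 between OAS1 and OAS3, 0.98 between OAS2 and OAS3 and 0.93 between OAS1 and OAS2. These correlations describe arrays that share their loading and scaling, and each OAS gene correlated with the array's median gene value at 0.49 to 0.52. IFIT1 correlated with IFIT5 at 0.65 and with EIF2AK2 at 0.67, while IFIT5 was closer to OAS1, at 0.73. IFIH1 had negative correlations with the IFIT and OAS genes, among them -0.73 with OAS1 and -0.67 with IFIT5, and 0.07 with EIF2AK2. Among all genes tested, the closest to IFIT1 was AK3 (0.99), then CHKA (0.97) and FANCM (0.96), and the closest to IFIT5 was COQ7 (0.97), then KAT5 (0.97) and ANKRD12 (0.96). PDE1C was closest to IFIH1 (0.99), BBX to EIF2AK2 (1.00), TGM1 to OAS1 (0.98), NFATC4 to OAS2 (1.00) and SNX21 to OAS3 (0.99). After the group means were subtracted, the closest were AK3 to IFIT1 (0.97), CERS3 to IFIT5 (0.98), PDE1C to IFIH1 (0.99), PRKAR2B to EIF2AK2 (0.99), SYNGR3 to OAS1 (0.99), GCNA to OAS2 (0.99) and CYP1A1 to OAS3 (1.00).

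Genes beside the 2 clusters, which are not interferon sensors, gave changes of the same sign on induction in undigested RNA. On chromosome 10, the 7 neighbours tested around the IFIT genes had changes from -0.93 (KIF20B) to -0.37 (FAS), none of them called, with a median of -0.70. On chromosome 12, those around the OAS genes ranged from -0.86 (DDX54) to -0.10 (RPL6), none called, with a median of -0.59. OAS1, OAS2 and OAS3 lay within the range of their neighbours, and IFIT1 and IFIT5 lay below that of theirs. After Xrn1 in induced cells, 2 of the 7 neighbours on chromosome 10 were called higher and 2 lower. On chromosome 12, 3 of 7 were called higher and 2 lower. For the difference of the Xrn1 effects, 2 of 7 neighbours were called higher on each chromosome.

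The wider interferon system was read from lists of genes, some of which share members (TRIM25 and OASL stand in 2 lists each, and RIGI also). With K294A induced, 0 of 39 interferon-stimulated genes tested (42 listed), 0 of 21 other RNA-sensing genes, 0 of 16 interferon receptor and signalling genes and 0 of 6 relatives of the sensor families were called in undigested RNA by limma. Unadjusted p values under 0.05 were found for 11, 8, 10 and 2 of them, beside 30.8% of all genes, a share near that of the interferon-stimulated genes. Median changes were -0.06, -0.54, -0.76 and -0.60, beside -0.35 over all genes, and that of the interferon-stimulated genes turned to 0.20 after centring and 0.15 after loess. No list had a call in digested RNA either, with 4, 2, 4 and 0 genes at an unadjusted p under 0.05, beside 9.09% of all genes.

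**Figure D5:**
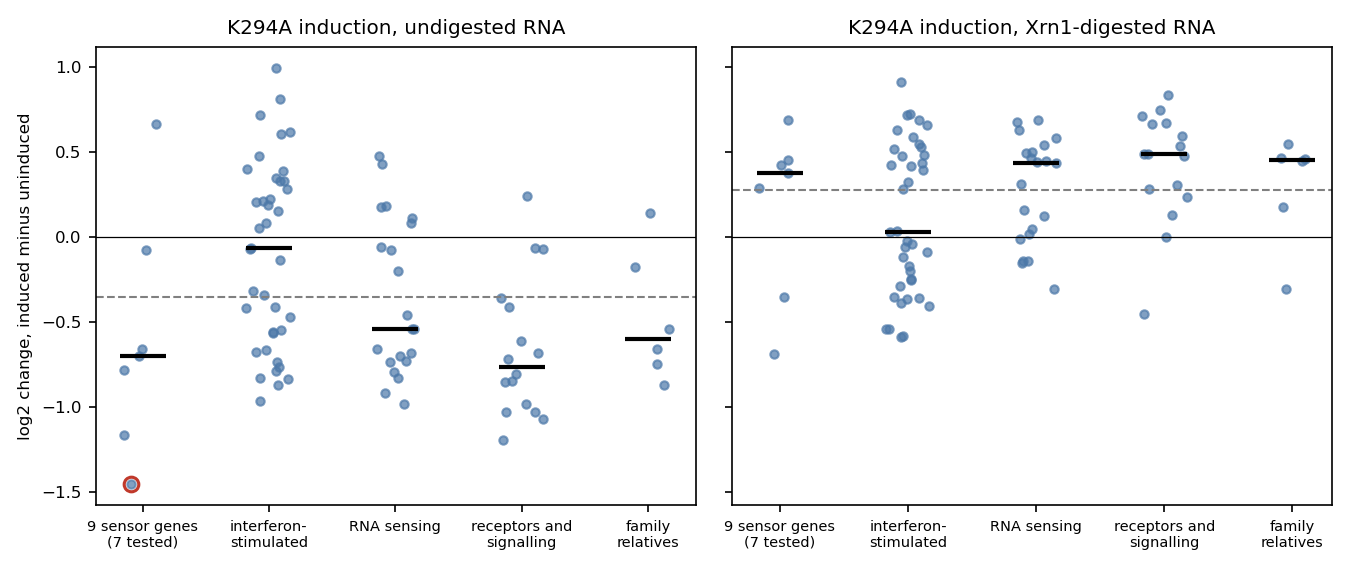
Log2 change on K294A induction (vertical axis) of each gene in the sensor group and in 4 lists, in undigested RNA (left) and Xrn1-digested RNA (right); black bars are list medians, the dashed line the median of all genes, and the red circle a limma call. IFIT5 is the only circled gene, and interferon-stimulated genes lie on both sides of 0 in both panels.

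Well-known interferon targets and components were not called. MX1, which blocks viral replication, was at 3.07, 3.37 and 3.52 in uninduced and 2.92, 2.53 and 3.56 in induced untreated cells, a change of -0.32 (adjusted p = 0.509). ISG15, the ubiquitin-like modifier, was at 2.75, 3.46 and 3.44 against 3.69, 2.44 and 3.32, a change of -0.06 (adjusted p = 0.913). RIGI, the sensor of triphosphate ends, had a change of -0.54 (adjusted p = 0.247). IFNAR1, a chain of the type I interferon receptor, was at 5.05, 4.62 and 4.81 against 3.19, 3.89 and 4.31, groups that did not overlap, with a change of -1.03 (adjusted p = 0.110). STAT2, a part of ISGF3, had the lowest change among the receptor and signalling genes, at -1.20 (adjusted p = 0.110). Of 21 interferon ligand genes listed, IFNL1 alone was tested, at -0.61 (adjusted p = 0.196).

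For Xrn1, the counts of these lists stand beside the 39.0% of all genes called in uninduced cells, 31.8% lower and 7.24% higher. Of the 39 interferon-stimulated genes 3 were higher and 7 lower, a smaller share than over all genes, among the latter TRIM25 (-2.23), a ubiquitin ligase of RIGI, and TRIM5 (-1.87), a restriction factor. After centring, 11 were higher and 5 lower, and after loess 9 higher and 4 lower. Over all 16883 genes, centring gave 3930 higher and 4294 lower, and loess 3695 and 3692. Of the other RNA-sensing genes 0 were higher and 10 lower, led after TRIM25 by ADAR (-1.83), the editor of double-stranded RNA, with 3 higher and 9 lower after centring and 2 higher and 6 lower after loess. Receptor and signalling genes gave 0 higher and 10 lower, led by IFNAR1 (-2.74) and PTPN11 (-2.74), and the PKR relatives EIF2AK4 (-2.47), EIF2AK1 (-2.16) and EIF2AK3 (-0.81) were lower with EIF2AK2. These lists' medians were -0.05, -0.79, -1.65 and -0.67, beside -0.27 over all genes.

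In induced cells, where 39.3% of all genes were called, 10 of the 39 interferon-stimulated genes were higher after Xrn1 and 5 lower. IFI27 was at 1.46 and DTX3L at -1.30. After centring the counts were 10 and 10, beside 3665 higher and 3871 lower over all 16883 genes. MX1 was among the higher ones at 0.87 (adjusted p = 0.0319). Among the other RNA-sensing genes 4 were higher and 5 lower, led by ZC3HAV1 (-1.53) and ADAR (-1.47). The 2 higher and 5 lower receptor and signalling genes were led by PTPN11 and IFNGR1 (-1.47), and the PKR relatives EIF2AK1 (-1.81), EIF2AK3 (-1.26) and EIF2AK4 (-1.26) were lower again. OASL, a relative of the OAS genes, was higher at 0.92 (adjusted p = 0.0224), and so was IFNL1 at 1.06 (adjusted p = 0.00842).

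The difference of the Xrn1 effects was positive for most of the genes called in these lists as the values were deposited, as it was over all genes (20.6% higher, 1.23% lower). It was called higher for 9 and lower for 2 of the 39 interferon-stimulated genes, led by LGALS3BP (1.68) and TRIM14 (1.52), but higher for 1 and lower for 6 after centring, and for 0 and 2 after loess. Over all 16883 genes, centring gave 520 higher and 1336 lower, and loess 165 and 258. The other RNA-sensing genes gave 6 higher and 0 lower, led by IRF3 (1.52) and ZNFX1 (1.51), and 0 and 0 after centring. Receptor and signalling genes gave 10 higher and 0 lower, led by STAT2 (1.87) and IFNGR2 (1.86), and 2 and 0 after centring. Of the family relatives, OASL (1.42) alone was called, and not after centring.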

How the data were processed

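The 12 arrays are Affymetrix exon arrays, 1 per cytoplasmic RNA sample, in 4 groups of 3. What was deposited is a log2 value per probe set and array, which the authors made with RMA in oligo, per the submitters' processing notes. Which software version they ran is not given in the sources used here. RMA makes the arrays' distributions alike, which can turn a loss from many transcripts into a relative change. Of 1411399 probe sets, 357604 had 1 symbol, 15322 several and 1038473 none. A gene's value is the mean of its probe sets with an average above 2.04, with at least 3 required. Contrasts of the 4 group means were fitted with limma 3.58.1 (R 4.3.3) on all genes, with Benjamini-Hochberg adjustment at 0.05. The self-test on simulated data was run with the same fit. Numpy 2.4.6, pandas 2.3.3 and matplotlib 3.10.9 were used. The number of arrays limits the precision.

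The members and lists were chosen with earlier results of these data known. Named genes are all 9 sensor genes, up to 2 called genes per list and contrast with the smallest p, a short set of interferon genes whatever their p, RNGTT, and the 3 genes most correlated with each sensor. The neighbours were taken from RefSeq's gene order. IFNB1 did not reach 3 kept probe sets. The title of the first induced Xrn1 sample gives replicate 2, as does the next one; it was taken as replicate 1. Alternatives were other filters, the median of probe sets, array centring, cyclic loess, other priors, a replicate block, only the groups compared, and leaving out arrays.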

Additional observations from a re-analysis of the deposited data

Results flagged for a closer look

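The Xrn1 effect differed between induced and uninduced cells for 4 sensor genes by the interaction term of the limma fit (induced minus uninduced, 3 arrays in each of the 4 groups). IFIT5 differed by 2.14 on the log2 scale (95% interval 1.20 to 3.09, adjusted p = 0.00402). IFIT1 differed by 1.45 (0.51 to 2.40, adjusted p = 0.0292) and OAS1 by 1.23 (0.29 to 2.18, adjusted p = 0.0493). IFIH1 was the one in the other direction, at -1.35 (-2.30 to -0.40, adjusted p = 0.0369). The median of all genes was 0.70, and 21.8% of them were called. Without the filter on dim probe sets, OAS1 and IFIH1 were not called.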

How the results depend on the processing

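The count of sensor genes called for induction in undigested RNA was 1, and it was 0 with the median of probe sets, no filter, the upper-quartile filter, 1 kept probe set, centring, cyclic loess, each gene's own spread, the replicate block, without CM5 and CM5X, without CM1 and CM1X, and with only the groups compared; leaving out 1 array gave 0 to 6. For Xrn1 in induced cells, the count of 4 was 2 with the median of probe sets, 1 without the filter, 0 with own spread, 2 with the replicate block by title number and 1 without CM1 and CM1X; leaving out 1 array gave 1 to 4. For the difference of the Xrn1 effects, the count of 4 was 1 with the median of probe sets or the upper-quartile filter, 2 with 1 kept probe set, centring or loess, 0 with own spread, 1 with the replicate block by title number, and 0 without CM5 and CM5X or without CM1 and CM1X; leaving out 1 array gave 0 to 6. The cause was not tested. Induction after Xrn1 gave 0 in every alternative run, and Xrn1 in uninduced cells gave 2 to 4. Over all genes, induction in undigested RNA called 7, but 0 with the median of probe sets, the upper-quartile filter, loess, own spread, only the groups compared, or without CM5 and CM5X or CM1 and CM1X. It called 37 with 1 kept probe set, 18 with centring (18 higher, 0 lower), 1 with the replicate block and 6922 without induced untreated replicate 3. For the difference, 3687 genes became 1465 with the median of probe sets, 1165 with the upper-quartile filter, 2360 with 1 kept probe set, 1856 with centring (520 higher, 1336 lower), 423 with loess (165 higher, 258 lower), 145 with the replicate block by title number, 0 with own spread, 1 without CM5 and CM5X and 2 without CM1 and CM1X. The untreated and Xrn1 arrays of title numbers 1 to 6 deviated from their group means mostly in opposite directions. The correlations were -0.44, -0.40, 0.13, -0.55, -0.71 and -0.24. The main fit did not take the numbers as pairs. With negative correlations its standard errors for the Xrn1 changes and their difference can be too small. CM5 and CM5X are replicate 2 of the uninduced groups, and CM1 and CM1X replicate 1 of the induced ones. Values of IFIT2, IFIT3, OAS2 and IFIH1 lie close to the level of dim probe sets, which limits the changes that could be measured. For IFIH1, 12 of 27 probe sets were kept, and its group means over all of them ran from 1.86 to 2.50.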
